A study of Mus musculus with 24 samples.

Results

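Laminins and integrins are the ligands and receptors of adhesion to the basement membrane, the protein sheet on which spermatogonia sit in the testis. Genes were chosen by symbol alone, as the laminin chains Lama, Lamb and Lamc and the integrin subunits Itga and Itgb followed by a number, with Itgav. The 29 genes described here are listed in both tables, out of 23177 genes listed for the Zbtb16 experiment and 21688 for the Sox3 experiment. They comprise 10 laminin chains and 19 integrin subunits. RNA-seq was done on sorted spermatogonia of mice at postnatal day 7, with 3 libraries for each of 8 groups and 24 libraries in all. Undifferentiated spermatogonia (uSPG) were enriched with beads against THY1 and differentiating spermatogonia (dSPG) with beads against KIT. The Zbtb16 table held THY1+ uSPG and KIT+ dSPG of Zbtb16 null mice (homozygous for the luxoid allele) and of wild-type (WT) mice. The Sox3 table held both fractions of conditional knockout (cKO) mice, in which Ddx4-Cre, active in germ cells, deletes floxed Sox3, and of their WT mice. All mice were of the B6 background, and the testes of 3 mice were pooled for each isolation.

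Each laminin is a trimer of an alpha, a beta and a gamma chain, which assembles inside the secreting cell and then polymerises in the matrix. Each integrin is a dimer of an alpha and a beta subunit that spans the membrane and links the matrix to the cytoskeleton. In the testis the basement membrane is made largely by Sertoli and peritubular myoid cells, and integrin alpha6 (Itga6) and beta1 (Itgb1), which together bind laminin, are surface proteins used to enrich spermatogonial stem cells.

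Libraries of the Zbtb16 table held an estimated 25950000 to 35190000 reads. Those of the Sox3 table held 28250000 to 31890000 reads in replicate 1 and 11020000 to 14920000 reads in replicates 2 and 3, and values of low genes are less precise there. Thy1 and Kit, the genes of the sorted proteins, followed the labels in the Zbtb16 table and in the cKO libraries. They went against the labels in the Sox3 table's WT libraries, where Thy1 averaged 0.240 FPKM for the label THY1+ and 3.83 FPKM for the label KIT+. Those libraries are therefore called labelled THY1+ and labelled KIT+, and directions within a fraction of that table rest on labels the markers contradict. Sox3 itself averaged 13.1 and 9.97 FPKM in the WT groups labelled THY1+ and KIT+ and at most 0.041 FPKM in the cKO groups. Zbtb16 averaged 52.1 FPKM in WT and 17.1 FPKM in null THY1+ uSPG. In bulk samples, fewer cells of a type and less RNA per cell cannot be told apart. The labels do not say that replicates were separate litters, so p-values measure the spread between these isolations.

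The levels of the genes were described first, as FPKM (fragments scaled to the length of the transcript and to the mapped reads of the library), a unit in which genes can be compared. In the Zbtb16 table, the mean over 12 libraries was at least 10 FPKM for 9 of the 29 genes, between 1 and 10 FPKM for 13 and below 1 FPKM for 7. The Sox3 table gave 9, 14 and 6 genes. Itgb1 was by far the most abundant integrin subunit, with group means from 103 to 131 FPKM. Lama2 and Lamb1 were the most abundant laminin chains, with group means from 26.5 to 79.8 FPKM and from 24.7 to 50.7 FPKM. The group means of Itga2, Itga8, Itga10, Itga11 and Lamb3 were below 1 FPKM in every group.

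Among alpha chains, Lama2 took between 52.3% and 72.6% of the summed FPKM in the 8 group means. Lama2 is the alpha chain of laminin-211 and is known from muscle and peripheral nerve. Among beta chains, Lamb1 took between 67.0% and 87.5%. Of the sum of Lamc1 and Lamc3, Lamc1, the gamma chain of most laminins, took between 47.7% and 63.8%, and Lamc3 took between 36.2% and 52.3%. The summed RNA of the chains in these fractions was thus mostly Lama2, Lamb1, Lamc1 and Lamc3 in each group. Lamb3 was between 0.0205 and 0.187 FPKM in all 24 libraries and was not tested in either table, because its mean lay under the minimum of 0.1 FPKM. The tests below therefore cover 28 of the 29 genes.

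**Figure D1:**
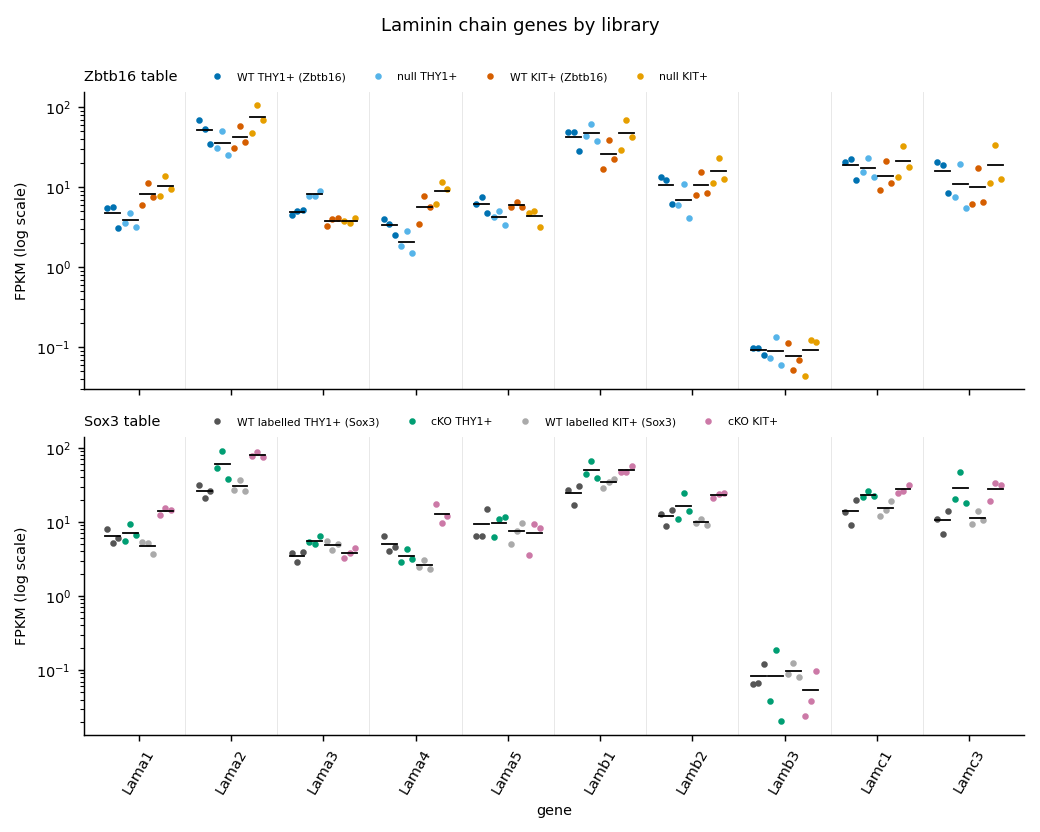
FPKM of 10 laminin chains (log axis) in each library of the Zbtb16 table (top) and the Sox3 table (bottom). Points are libraries, 3 per group, and black bars are group means. Lama2 and Lamb1 lie highest and Lamb3 lowest, and Lama3 stands higher in null THY1+ uSPG (mean 8.16 FPKM) than in WT THY1+ uSPG (mean 4.93 FPKM).

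Replicates of a group differed more for laminins than for integrins. Among groups with a mean of at least 1 FPKM, the coefficient of variation had a median of 28.0% for laminin chains and 19.4% for integrin subunits. Lamc3 reached the highest value of these, 69.7%, in null THY1+ uSPG, where its 3 libraries held 7.64, 19.7 and 5.54 FPKM. In null KIT+ dSPG, replicate 2 held the highest value of 9 of 10 laminin chains. In null THY1+ uSPG it held that of 9 of 10 laminin chains and of 15 of 19 integrin subunits. Laminin chains were thus often highest in the same library of a group. The highest library for Lama2 was also the highest for the summed Sertoli cell markers in 7 of 8 groups, for peritubular and stromal markers in 6 of 8 and for germ cell markers in 1 of 8. For Lama3 these counts were 0, 1 and 5 of 8. The same counts were not made over all genes. The part of somatic cells in these differences was not tested.

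The first comparison asked what the sort separates, by setting WT KIT+ dSPG against WT THY1+ uSPG of the Zbtb16 table. Of 19 integrin subunits, 11 were lower in KIT+ dSPG and 8 were not called, while none of the 9 laminin chains described and tested was called in limma. An unadjusted limma p below 0.05 was held by 2 of these 9 chains and by 8944 of all 22374 genes tested. Of the 28 genes tested, 11 were called (adjusted p of at most 0.05 and at least a 1.5-fold change), and each was lower in KIT+ dSPG. Of all genes tested, 21.2% were called, 7.21% higher and 14.0% lower. The median log2 change was -0.71 for integrin subunits, -0.32 for 9 laminin chains and -0.03 for all genes. With the replicate number as a block in limma, Lama1 was called higher in addition (log2 change 0.78, adjusted p 0.0101). Lamb1 (-0.73), Itga10 (-0.70) and Itgb8 (-0.64) were called lower (adjusted p 0.0321, 0.00913 and 0.0324). Not every same-numbered pair of these fractions correlated above 0.1, and the share of all genes called with this block is not given.

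Among receptors for laminin, Itga6 is the alpha subunit that pairs with beta1 or beta4. Its gene (ENSMUSG00000027111) spans 71745616 to 71858416 of chromosome 2 in GRCm38 and is read from the plus strand. WT THY1+ uSPG held Itga6 at 21.4, 24.3 and 21.4 FPKM, and WT KIT+ dSPG held it at 6.63, 11 and 9.06 FPKM. The groups did not overlap, and the log2 change was -1.35 (SE 0.16, adjusted p 8.99e-05). Itga3 and Itga7, the other laminin-binding alpha subunits, were called lower with log2 changes of -0.70 and -0.92.

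The beta1 subunit, the partner of most of these alpha chains, behaved otherwise. Itgb1 (ENSMUSG00000025809) spans 128685654 to 128733200 of chromosome 8, also on the plus strand. It was at 116.9, 107.0 and 119.5 FPKM in the 3 THY1+ libraries and at 104.1, 111.5 and 119.2 FPKM in the 3 KIT+ libraries. These values overlapped, with a log2 change of -0.04 (95% interval -0.27 to 0.20). Itgb4, the partner of alpha6 in hemidesmosomes, averaged 0.65 FPKM in THY1+ and 0.862 FPKM in KIT+ and was no call.

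Integrins known from leukocytes gave the largest differences. Itgb2, the beta subunit of the leukocyte integrins LFA-1 and Mac-1, was at 4.40, 6.07 and 4.02 FPKM in WT THY1+ libraries and at 0.149, 0.102 and 0.0887 FPKM in WT KIT+ libraries. The latter values stand for an estimated 8 to 13 reads a library, and the log2 change was -4.52 (SE 0.38, adjusted p 7.92e-06). Itga4, an alpha subunit that binds VCAM-1 and fibronectin, was at 5.85, 6.99 and 5.90 FPKM in THY1+ and 0.670, 1.94 and 1.30 FPKM in KIT+, a log2 change of -2.28 (SE 0.34). No library of either gene overlapped between the fractions, and both were picked for their large changes here. Itga4 overlaps Cerkl on the opposite strand, and the strand used in counting is not given in the sources used here, so reads of the pair may be mixed.

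Of the 4 collagen-binding alpha subunits Itga1 was called lower, and of the 3 beta subunits that pair with alphav Itgb3 and Itgb5 were. Without the replicate block, Itga2, Itga10, Itga11 and Itgb8 were not called, with log2 changes of -0.43, -0.70, 0.33 and -0.64. Itga1 overlaps Pelo on the same strand, and reads of the pair may be mixed. Itga1, a collagen-binding alpha subunit, was at 5.84, 5.11 and 4.70 FPKM in THY1+ and 1.2, 1.80 and 1.49 FPKM in KIT+ (log2 change -1.75, SE 0.17). Itgb5, which pairs with alphav, was at 16.9, 19.5 and 14.4 FPKM against 5.38, 10.2 and 6.55 FPKM (log2 change -1.23, SE 0.25). Itgb3, another partner of alphav, was at 6.96, 7.19 and 4.94 FPKM against 2.42, 3.59 and 2.93 FPKM (log2 change -1.07, SE 0.26). For each of these 3 genes, also picked for large changes, the highest KIT+ library lay below the lowest THY1+ library. The remaining calls were Itgb7, Itga8 and Itgav, with log2 changes of -0.88, -0.95 and -0.71. Leaving out replicate 1 or 2 of WT THY1+, or replicate 3 of WT KIT+, ended the calls of Itga3, Itga7, Itgb7 and Itgav (adjusted p up to 0.151) and left 7 genes called. Replicate 1 of WT KIT+ was also needed for Itga3, Itga7 and Itgav, replicate 2 of WT KIT+ for Itgb7, and replicate 1 of null THY1+ and replicate 3 of null KIT+, which share the spread, for Itgav. The 17 genes not called had log2 changes from -0.74 to 0.78.

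Markers of other cells moved with this comparison. Macrophage markers were lower in KIT+ dSPG for 9 of 9 genes tested, their summed level falling from between 889 and 1001 FPKM to between 6.80 and 9.24 FPKM. T cell markers were lower for 6 of 8, with sums of 13.4 to 14.9 and 2.16 to 2.80 FPKM and with Cd8a below 0.1 FPKM in each KIT+ library. Peritubular and stromal markers were lower for 6 of 8, with sums of 353 to 504.5 and 151 to 246 FPKM. Leydig cell markers were higher for 6 of 6, with sums of 83.1 to 119 and 1215 to 2272 FPKM, and Sertoli cell markers were higher for 2 of 8 and lower for 1. Germ cell markers gave no call of 6, with sums of 954 to 1169 and 939.5 to 1214 FPKM. The part of these cells in the integrin differences was not tested.

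Genes near the receptors in the pathway were read from 3 lists. Of 6 tested integrin subunits outside the symbol rule, among them Itgal, Itgam, Itgax and Itgae of leukocytes, 5 were lower in KIT+ dSPG. Itgam, the alpha chain of Mac-1, averaged 2.76 FPKM in THY1+ and 0.0923 FPKM in KIT+. Of 15 adaptors and kinases, 4 were lower (Tln2, Fermt3, Parvb and Parvg) and Itgb1bp1, which binds the beta1 tail, was higher. Fermt3, the kindlin of blood cells, averaged 7.46 and 0.974 FPKM, and Itgb1bp1 averaged 5.12 and 9.09 FPKM. Of 12 basement membrane partners of laminin, Nid2 (nidogen-2, a linker of laminin to collagen IV) was lower, with means of 32.0 and 14.0 FPKM.

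The fraction comparison was repeated in libraries shared with none of the above. In Sox3 cKO mice, whose fractions carry the markers of their labels, 12 of 28 genes were called between KIT+ dSPG and THY1+ uSPG, 9 lower and 3 higher. Of all genes tested in that table, 22.7% were called, 10.5% higher and 12.2% lower. The 9 lower genes were Itga1, Itga3, Itga4, Itga6, Itga7, Itgb2, Itgb3, Itgb5 and Itgb7. These were 100% of the genes called lower in cKO and 81.8% of the 11 called lower in WT of the Zbtb16 table. Itga8 and Itgav were called in the latter alone, a difference that was not tested.

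The largest falls in cKO mice were again those of integrins known from leukocytes. Itgb2 was at 7.80, 6.60 and 8.23 FPKM in cKO THY1+ uSPG and 0.232, 0.443 and 0.277 FPKM in cKO KIT+ dSPG (log2 change -4.22, SE 0.24). Itgb7, which pairs with alpha4 or alphaE in lymphocytes, was at 2.03, 1.75 and 2.57 FPKM against 0.465, 0.647 and 0.554 FPKM (log2 change -1.75, SE 0.30). Itga4 was at 5.96, 5.57 and 6.28 FPKM against 2.23, 1.2 and 1.98 FPKM (log2 change -1.71, SE 0.25). No values overlapped between the fractions for these 3 genes, which were picked for their large changes here. Itga3 was at 4.68, 4.75 and 4.96 FPKM against 1.69, 2.26 and 2.43 FPKM (log2 change -1.15, SE 0.24), and Itga6 was at 23.2, 19.6 and 24.7 against 9.77, 11.9 and 14.1 FPKM (log2 change -0.92, SE 0.16, adjusted p 0.00151). Itgb1 overlapped between the fractions, at 116.2, 110.2 and 105.0 against 152.4, 109.0 and 129.7 FPKM (log2 change 0.23, 95% interval -0.02 to 0.48). Of the 9 lower genes, Itga1 lost its call without replicate 1 of cKO THY1+ or replicate 2 of cKO KIT+, and Itgb5 without replicate 1 or 3 of cKO THY1+ (adjusted p up to 0.0526 and 0.0523). In replicates 2 and 3 alone, 6 of the 12 genes were called, and the share of all genes called there is not given.

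The 3 genes that were higher in cKO KIT+ dSPG were a receptor and a pair of alpha chains. Itga9, an alpha subunit that binds tenascin and osteopontin, was at 6.69, 10.5 and 7.01 FPKM in cKO THY1+ and 29.5, 19.7 and 25.3 FPKM in cKO KIT+ (log2 change 1.62, SE 0.23, adjusted p 0.000345). Lama4, the alpha chain of endothelial basement membranes, was at 2.89, 4.37 and 3.13 FPKM against 17.5, 9.59 and 12.1 FPKM (log2 change 1.86, SE 0.25). Lama1, the alpha chain of laminin-111, was at 5.57, 9.25 and 6.60 against 12.3, 15.4 and 14.3 FPKM (log2 change 0.99, SE 0.22). Each of the 3 was above its THY1+ range in every cKO KIT+ library. Their log2 changes in WT of the Zbtb16 table were positive too, without a call apart from that of Lama1 with the replicate block. Sertoli cell markers had sums of 32.2 to 57.4 FPKM in cKO THY1+ and 152 to 212.5 FPKM in cKO KIT+, with 2 of 7 genes higher and 1 lower. Clu was the largest part of these sums, with means of 19.1 FPKM in cKO THY1+ and 133 FPKM in cKO KIT+. Leydig cell markers had sums of 69.1 to 106.3 FPKM in cKO THY1+ and 2493 to 4941 FPKM in cKO KIT+. Endothelial markers were higher for 4 of 7, and macrophage markers were lower for 9 of 9. The highest library for Itga9 and that for Lama4 were each the highest for the Sertoli cell sum in 8 of 8 groups. Each was also the highest for the peritubular and stromal sum in 7 of 8 groups and for the endothelial sum in 7 of 8. The Leydig sum was highest in a different library in WT THY1+ of the Zbtb16 table, in null KIT+ and in cKO THY1+. How often genes in general match these sums was not counted. The part of these cells was not tested.

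**Figure D2:**
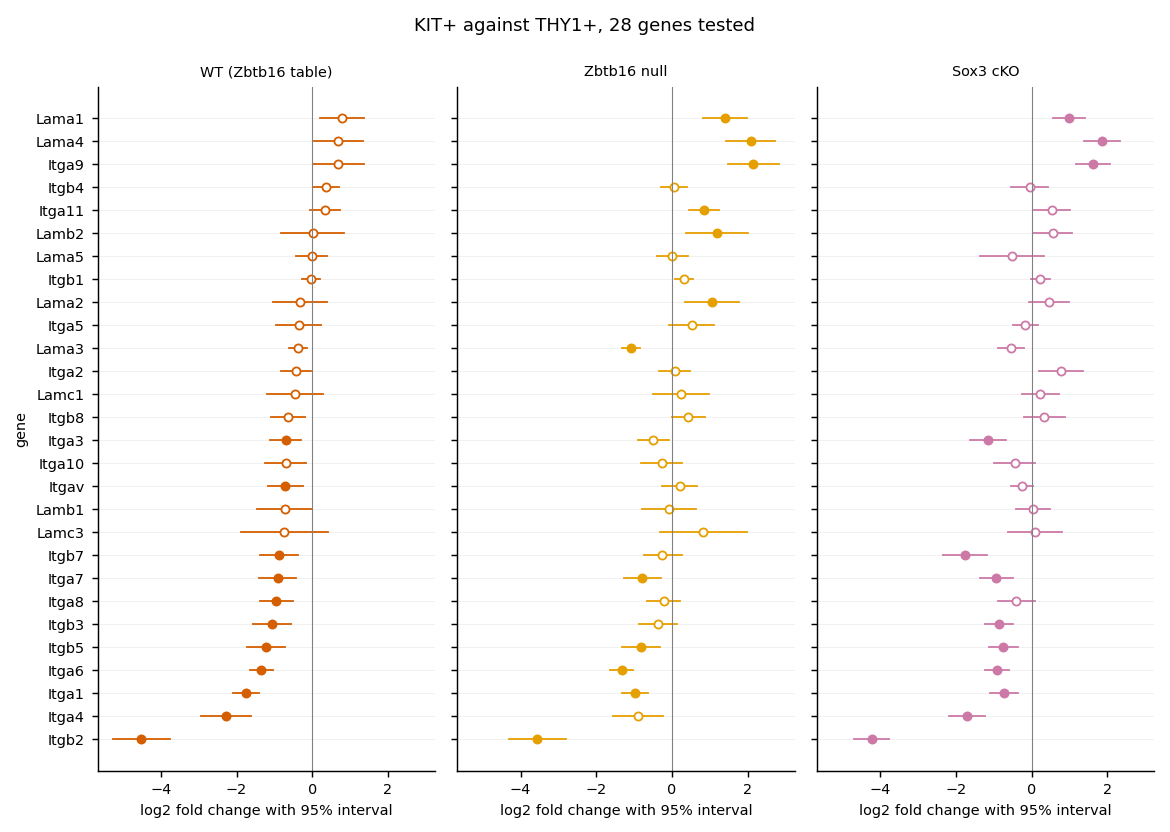
Log2 fold change of KIT+ dSPG against THY1+ uSPG for the 28 genes tested, with 95% intervals, in WT of the Zbtb16 table, Zbtb16 null and Sox3 cKO (3 libraries per fraction). Filled points are calls. Itgb2 lies far to the left in each panel (-4.52, -3.56 and -4.22), Itgb1 near 0, and Itga9 and Lama4 at the right of the null and cKO panels.

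Promoter sequence of 3 of these genes is shown, because Itgb1 was not called between fractions while Itga4 and Itgb5 were called lower in KIT+ in both WT and cKO. Each run holds the 150 bases just upstream of the start that RefSeq gives on GRCm38.p6, on the plus strand, which is the strand of each gene. They lie at chr8:128685504-128685653, chr2:79255276-79255425 and chr16:33829515-33829664. Capitals mark matches on either strand to GGGCGG, the GC box bound by SP factors, and to AACAAT or ACAAAG, sites of the SOX type. No marked matches overlap each other.
Itgb1: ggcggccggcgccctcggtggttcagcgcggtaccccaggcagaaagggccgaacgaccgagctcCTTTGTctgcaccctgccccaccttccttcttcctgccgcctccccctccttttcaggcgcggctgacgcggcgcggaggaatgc
Itga4: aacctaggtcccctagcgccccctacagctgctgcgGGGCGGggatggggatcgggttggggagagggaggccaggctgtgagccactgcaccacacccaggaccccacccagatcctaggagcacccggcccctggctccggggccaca
Itgb5: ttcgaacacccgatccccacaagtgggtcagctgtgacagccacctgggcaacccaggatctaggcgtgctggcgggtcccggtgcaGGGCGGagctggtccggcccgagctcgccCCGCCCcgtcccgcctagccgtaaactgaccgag
The Itgb1 run held 1 match to ACAAAG, read on the reverse strand, and no whole GC box, but a GC box begins at the base just before this run and lies within the 250 bases searched. The Itga4 run held 1 GC box and the Itgb5 run held 2, and neither held a SOX-type match. Of 32851 promoters of the table, searched over 250 upstream bases, 32.7% held GGGCGG, 9.42% AACAAT and 16.5% ACAAAG. Promoters were found for 19 of the 29 genes, of which 7, 1 and 2 held these motifs. A match is a description of letters and was not tied to any change of level.

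**Figure D3:**
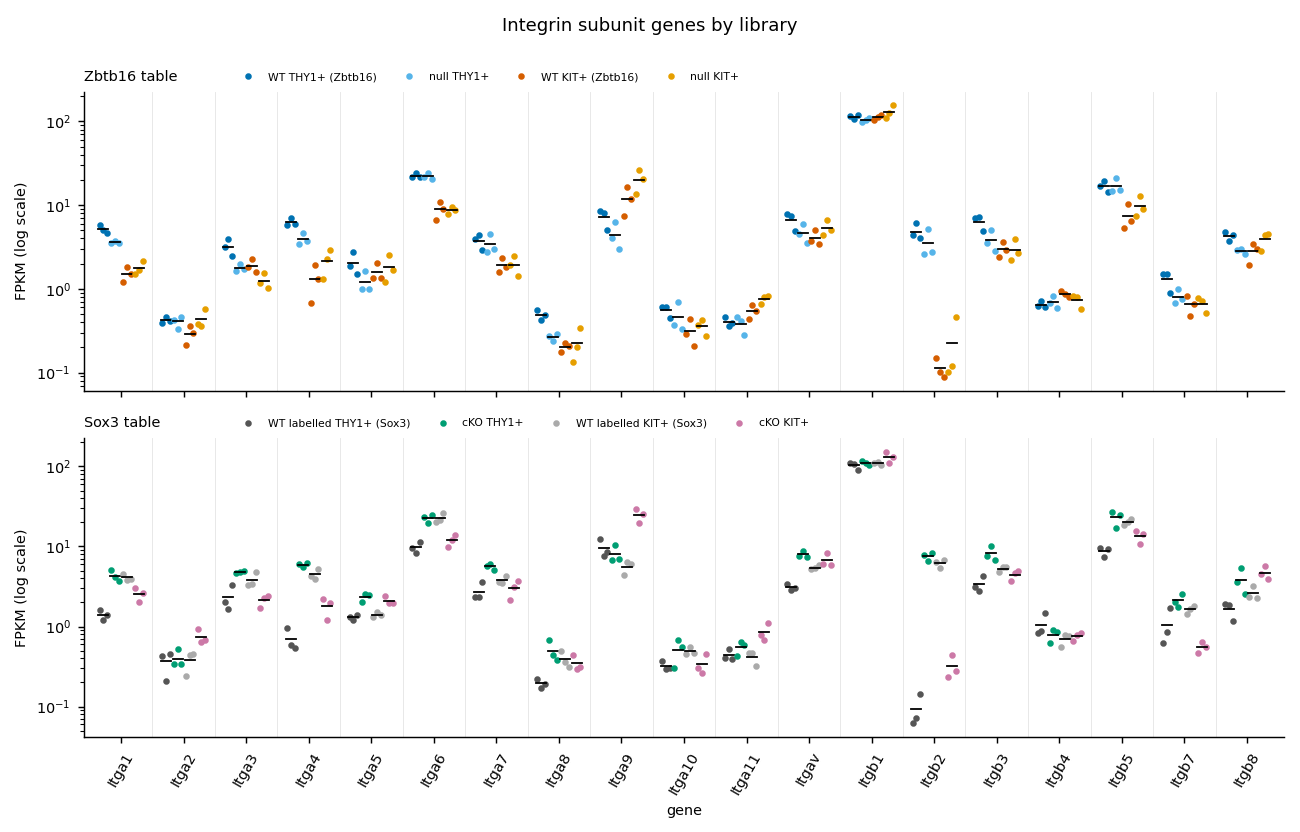
FPKM of the 19 integrin subunits (log axis) in each library of the Zbtb16 table (top) and the Sox3 table (bottom). Points are libraries, 3 per group, and black bars are group means. Mean Itga6 is 22.4 and 22.0 FPKM in WT and null THY1+ uSPG and 8.89 and 8.68 FPKM in their KIT+ dSPG, and the WT groups of the Sox3 table show the reverse of their labels.

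In Zbtb16 null mice, 12 of 28 genes were called between the fractions, 6 lower and 6 higher in KIT+ dSPG, against 29.2% of all genes (16.0% lower and 13.2% higher). Those lower were Itgb2, Itga6, Lama3, Itga1, Itgb5 and Itga7. Null THY1+ uSPG held Itga6 at 21.5, 24.1 and 20.3 FPKM and null KIT+ dSPG at 7.83, 9.39 and 8.83 FPKM, a log2 change of -1.33 (SE 0.16). Those higher were Itga9 (log2 change 2.15), Lama4 (2.08), Lama1 (1.39), Lamb2 (1.2), Lama2 (1.06) and Itga11 (0.84). Lamb2 is the beta chain of laminins at the neuromuscular synapse and in the glomerulus. With the replicate number as a block, Itga4 (log2 change -0.90) and Lamc3 (0.83) were called in addition, beside 31.6% of all genes. Sertoli cell markers were higher for 6 of 8 and lower for 1, with sums of 21.2 to 30.1 FPKM in null THY1+ and 120.0 to 162 FPKM in null KIT+. Leydig markers were higher for 6 of 6, with sums of 49.8 to 79.6 and 2045 to 3122 FPKM. Macrophage markers were lower for 9 of 9, with sums of 419.5 to 774 and 6.96 to 19.7 FPKM, and T cell markers for 6 of 8. Germ cell markers were lower for 3 of 6, with sums of 1110 to 1461 and 697 to 1057 FPKM. The part of these cells in the differences was not tested.

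To ask what loss of ZBTB16 changes, null libraries were set against WT libraries of the same fraction. Lama3, the alpha chain of laminin-332 in epithelial anchoring sites, rose in THY1+ uSPG, where no integrin subunit was called. This call among 28 genes, 1 gene or 3.57%, stands beside 3.98% of all genes, 2.71% higher and 1.26% lower. Lama3 was at 4.49, 5.12 and 5.19 FPKM in WT and 7.86, 7.73 and 8.87 FPKM in null THY1+ uSPG. The groups did not overlap, and the log2 change was 0.71 (SE 0.12, adjusted p 0.00884). Its share of the alpha chain sum averaged 7.36% in WT and 16.1% in null. Lamb3, the beta chain of the same trimer, averaged 0.0928 and 0.0888 FPKM, close to the limit of measurement. Leaving out any 1 library kept the Lama3 call, with log2 changes from 0.65 to 0.75.

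Most other genes had changes of the opposite sign, without a call. Of 28 genes, 25 had a negative log2 change in null THY1+ uSPG, with a median of -0.52 beside -0.03 for all genes. An unadjusted limma p below 0.05 was held by 9 of the 28 genes and by 5325 of all 22374 genes tested. Itga3 was closest to a call among the negative ones, at 3.15, 3.91 and 2.46 FPKM in WT and 1.62, 2.0 and 1.71 FPKM in null (log2 change -0.78, adjusted p 0.0543). It was called without replicate 3 of WT THY1+ or without replicate 2 of null KIT+, which shares the spread. Deviations of same-numbered WT and null libraries of THY1+ uSPG correlated at 0.133, 0.344 and 0.475 for replicates 1, 2 and 3. The highest value for unlike numbers was 0.121. With the number as a block, 4 genes were called in place of 1, as Itga3 (-0.78, adjusted p 0.00377), Itga5 (-0.72, adjusted p 0.0116) and Itgb3 (-0.74, adjusted p 0.0162) joined Lama3, beside 8.85% of all genes. Itga6 was level, with a log2 change of -0.03 (95% interval -0.34 to 0.28). Itgb1 was at 98.3, 102.9 and 110.9 FPKM in null THY1+ uSPG (log2 change -0.14, 95% interval -0.37 to 0.10).

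Median log2 changes of the 6 somatic and immune marker lists were negative too, from -0.84 for Leydig markers to -0.51 for T cell markers. The endothelial list was split, with positive changes of Vwf (0.90), Pecam1 (0.66) and Flt1 (0.19). Cd2 (0.46) and Lck (0.16) of the T cell list and Rhox5 (0.56) of the Sertoli list were positive as well. Each other member tested was negative. Macrophage sums were 419.5 to 774 FPKM in null against 889 to 1001 FPKM in WT, with Cd68 called among 9 genes. Peritubular and stromal sums were 228.5 to 307 against 353 to 504.5 FPKM, and Sertoli sums were 21.2 to 30.1 against 27.4 to 46.9 FPKM. Germ cell sums were 1110 to 1461 against 954 to 1169 FPKM. Their part in the negative changes was not tested. Of 12 basement membrane partners, 15 adaptors and kinases and 6 other integrin subunits, none was called, with median log2 changes of -0.55, -0.28 and -0.13. Of these, 1, 4 and 0 had an unadjusted p below 0.05 in limma.

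In KIT+ dSPG, none of the 28 genes was called between null and WT in limma, while 0.259% of all genes were called (0.192% higher and 0.0670% lower). An unadjusted limma p below 0.05 was held by 5 of the 28 genes and by 3863 of all 22374 genes tested. Lama3 was at 3.28, 3.96 and 4.12 FPKM in WT and 3.77, 3.58 and 4.09 FPKM in null (log2 change 0.01, 95% interval -0.23 to 0.25). Here 23 of 28 genes had a positive log2 change, with a median of 0.37 beside 0.01 for all genes. The basement membrane chains Lama2 and Lamb1 had log2 changes of 0.81 and 0.85 (adjusted p 0.282 and 0.272), and with the replicate number as a block these were 0.0857 and 0.0629. Lama2 was at 30.5, 58.3 and 37.1 FPKM in WT and 47.8, 105.4 and 70.1 FPKM in null, in the order of the replicate numbers. Lamb1 was at 16.7, 38.6 and 22.7 FPKM in WT and 29.3, 69.7 and 42.1 FPKM in null. For both genes the ranges overlapped, and null was higher in 3 of 3 same-numbered pairs. The block called none of the 28 genes in limma, beside 2.29% of all genes. Itga3 and Lama5 had adjusted p of 0.0393 and 0.0428 there, with log2 changes of -0.57 and -0.49 that lie under 1.5-fold. Null Sertoli sums of 120.0 to 162 FPKM stood above WT sums of 72.1 to 112 FPKM. Peritubular and stromal sums were 238 to 425 FPKM in null against 151 to 246 FPKM in WT. Leydig sums were 2045 to 3122 against 1215 to 2272 FPKM, and endothelial sums were 15.6 to 32.7 against 9.93 to 25.0 FPKM. Germ cell sums were 697 to 1057 against 939.5 to 1214 FPKM. The part of these cells was not tested.

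Whether the genotype effect differed between fractions was tested as the interaction, the change in KIT+ less that in THY1+. None of the 28 genes was called in limma, against 0.0313% of all genes (0.00447% higher and 0.0268% lower). An unadjusted limma p below 0.05 was held by 9 of the 28 genes and by 5014 of all 22374 genes tested. With the replicate number as a block over the 4 groups, where 16 of 18 same-numbered pairs of libraries correlated above 0.1, 11 genes were called, 10 higher and 1 lower, beside 12.3% of all genes (9.06% higher and 3.26% lower). Those higher were Itga1, Itga4, Itga5, Itga9, Itgav, Itgb8, Lama2, Lama4, Lamb2 and Lamc3, of which Itgav had the smallest adjusted p (log2 difference 0.92, adjusted p 0.0233). The sign was positive for 26 of 28 genes, with a median of 0.68 on the log2 scale beside 0 for all genes. Lama3 had the smallest p, with a difference of -0.70 (SE 0.17, adjusted p 0.0938), and was the gene called lower with the block (SE 0.12, adjusted p 0.0176).

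Averaged over both fractions, null against WT called Itga3 of the 28 genes, beside 2.30% of all genes (1.55% higher and 0.746% lower). Itga3, whose product pairs with beta1 to bind laminin-332, fell by 0.68 on the log2 scale (SE 0.15, adjusted p 0.0283), with WT KIT+ dSPG at 1.82, 2.25 and 1.61 FPKM and null KIT+ dSPG at 1.18, 1.55 and 1.02 FPKM. The Itga3 call was lost on leaving out replicate 1 or 2 of WT THY1+, 1 or 3 of null THY1+, 1 or 2 of WT KIT+, or 1 or 3 of null KIT+. Its log2 change then stayed between -0.76 and -0.60 over the 12 fits (adjusted p 0.0231 to 0.0794).

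**Figure D4:**
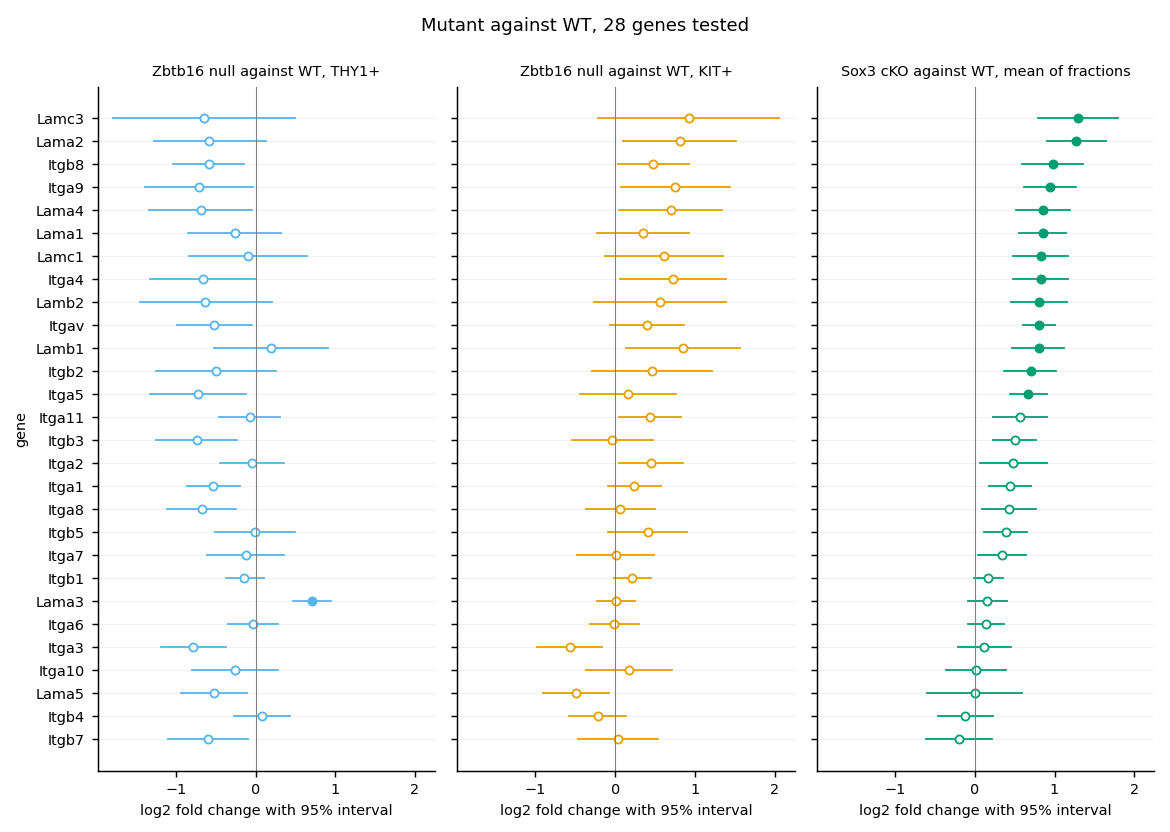
Log2 fold change of mutant against WT for the 28 genes tested, with 95% intervals: Zbtb16 null in THY1+ uSPG and in KIT+ dSPG (3 libraries against 3) and Sox3 cKO averaged over both fractions (6 against 6). Filled points are calls. Lama3 stands to the right in the first panel, where 25 of 28 points are negative, and 13 genes are called in the Sox3 panel, each higher in cKO.

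The Sox3 genotype effect was taken as the mean of both fractions. This weighs the 6 WT libraries alike, so exchanging their labels would leave it as it is. Laminin chains and several integrins were higher in cKO. Of 28 genes, 13 were called, each higher in cKO, beside 10.3% of all genes (7.49% higher and 2.83% lower). The calls were 7 of 9 laminin chains tested and 6 of 19 integrin subunits. The median log2 change was 0.83 for laminin chains, 0.44 for integrin subunits and 0.02 for all genes.

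The 4 chains that dominate the laminin sum were each called higher. Lama2 had a lowest, median and highest value of 21.3, 26.7 and 37.2 FPKM in the 6 WT libraries and 38.1, 76.2 and 92.2 FPKM in the 6 cKO libraries (log2 change 1.27, SE 0.19, adjusted p 0.00289). Lamb1 had 16.9, 29.9 and 38.5 FPKM in WT and 39.0, 47.4 and 66.6 FPKM in cKO (log2 change 0.80, SE 0.16). Lamc1 had 9.19, 14.1 and 19.7 FPKM in WT and 21.5, 25.6 and 31.5 FPKM in cKO (log2 change 0.83, SE 0.17). These are the 3 chains of laminin-211, and for each the lowest cKO library lay above the highest WT library. Lamc3 gave 6.96, 10.9 and 14.0 FPKM in WT and 18.0, 26.1 and 47.2 FPKM in cKO (log2 change 1.30, SE 0.26), also without overlap. Lamb2 gave 8.72, 10.4 and 14.4 FPKM against 11.1, 22.4 and 24.6 FPKM (log2 change 0.81, SE 0.18).

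The other alpha chains called were Lama1 and Lama4, whose values overlapped between genotypes. Lama1 had 3.67, 5.33 and 7.95 FPKM in WT and 5.57, 10.8 and 15.4 FPKM in cKO (log2 change 0.85, SE 0.15). Lama4 had 2.31, 3.55 and 6.41 FPKM in WT and 2.89, 6.98 and 17.5 FPKM in cKO (log2 change 0.86, SE 0.17). Both also differed between the cKO fractions, which widens these ranges. Lama3 and Lama5 were not called, with log2 changes of 0.15 and 0.00.

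Among integrins, Itgav, Itgb8, Itga5, Itga9, Itga4 and Itgb2 rose. Itgav, the alpha subunit of vitronectin receptors, had 2.89, 4.27 and 5.86 FPKM in WT and 5.87, 7.54 and 8.85 FPKM in cKO (log2 change 0.81, SE 0.10, adjusted p 0.00193). Itgb8, which with alphav binds latent TGF-beta, had 1.18, 2.08 and 3.24 FPKM in WT and 2.55, 4.19 and 5.70 FPKM in cKO (log2 change 0.98, SE 0.20). Itga5, the alpha subunit of the fibronectin receptor, had 1.21, 1.34 and 1.53 FPKM in WT and 1.95, 2.21 and 2.53 FPKM in cKO (log2 change 0.67, SE 0.11). Itgav and Itga5 did not overlap between genotypes. Itga9 had 4.41, 7.05 and 12.3 FPKM in WT and 6.69, 15.1 and 29.5 FPKM in cKO (log2 change 0.94, SE 0.16). The last calls were Itga4 and Itgb2, which differed most between fractions. Itga4 had 0.540, 2.45 and 5.22 FPKM in WT and 1.2, 3.90 and 6.28 FPKM in cKO (log2 change 0.83, SE 0.18). Itgb2 had 0.0617, 2.74 and 6.71 FPKM in WT and 0.232, 3.52 and 8.23 FPKM in cKO (log2 change 0.70, SE 0.17), and its lower values are a few reads, 3 to 6 in WT labelled THY1+.

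The receptors used to enrich stem cells were not called. Itga6 had 8.34, 15.9 and 26.0 FPKM in the 6 WT libraries and 9.77, 16.9 and 24.7 FPKM in the 6 cKO libraries, a log2 change of 0.14 (95% interval -0.09 to 0.37). Itgb1 had 90.6, 108.9 and 115.2 FPKM in WT and 105.0, 113.2 and 152.4 FPKM in cKO, a log2 change of 0.17 (95% interval -0.01 to 0.35). The intervals reach no 1.5-fold change for either gene.

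Partners of laminin in the matrix were higher too. Of 12 basement membrane genes, 8 were called, each higher in cKO: Nid1, Nid2 and the collagen IV chains Col4a1 to Col4a6. Nid1 averaged 44.1 FPKM in cKO and 21.5 FPKM in WT (log2 change 1.05), and Col4a1 averaged 75.1 and 36.7 FPKM (log2 change 1.01). Of 15 adaptors and kinases, Tln1 and Parva were higher (log2 changes 0.64 and 0.85). Marker lists of somatic cells moved with these genes. Leydig markers were higher for 4 of 6, Sertoli markers for 3 of 7, endothelial markers for 2 of 7 and peritubular and stromal markers for 1 of 8, while Tex101 was called lower among 6 germ cell markers. Each of these 6 had an adjusted p below 0.05 in limma and a negative log2 change, from -0.69 to -0.35, and their sums were 735 to 1160 FPKM in the cKO libraries and 1232 to 1392 FPKM in the WT libraries, without overlap. Sertoli sums were 152 to 212.5 FPKM in cKO KIT+ and 81.2 to 98.6 FPKM in WT labelled THY1+, and 32.2 to 57.4 and 30.3 to 46.8 FPKM in cKO THY1+ and the libraries labelled KIT+. Wt1, a Sertoli marker, is not listed in the Sox3 table, which holds 7 of the 8 Sertoli markers. No other defining Sertoli, Leydig or endothelial marker was below 0.1 FPKM in all libraries of a group, and the part of these cells was not tested. The replicates differ in depth, and in replicates 2 and 3 alone 5 of the 13 genes were called, each higher. The share of all genes called there is not given, so this drop is no result about these genes.

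**Figure D5:**
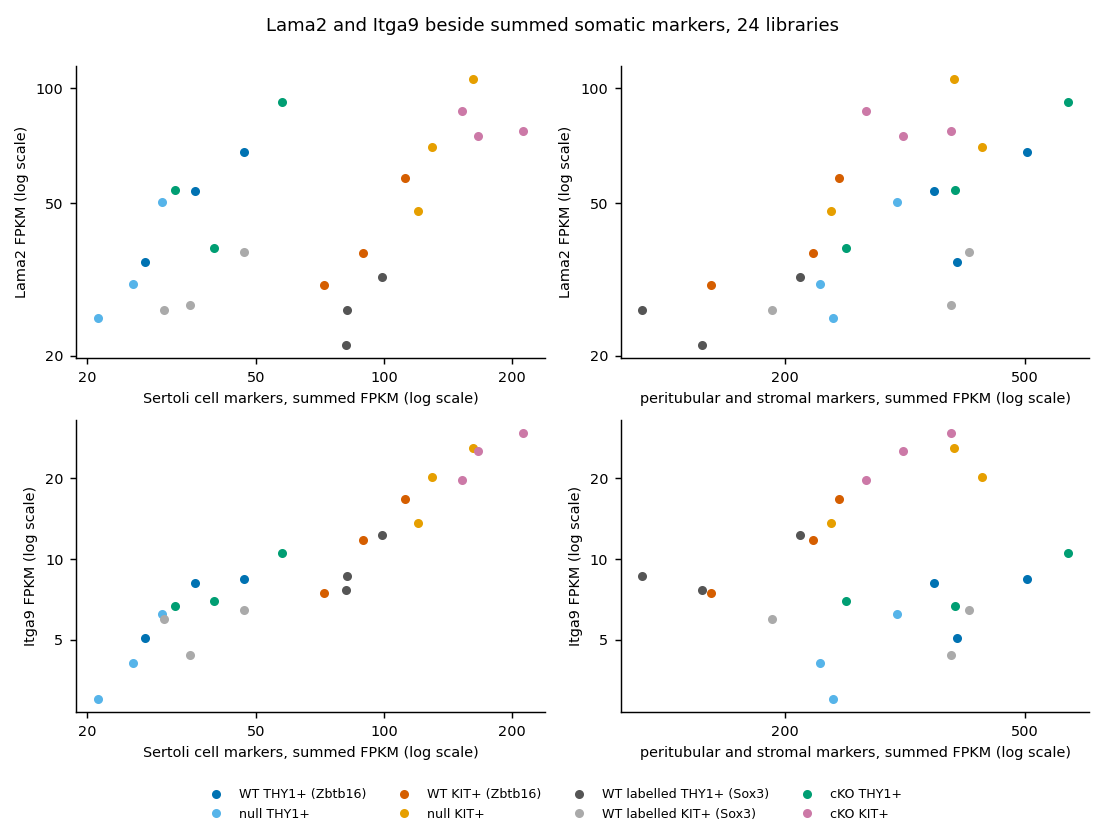
FPKM of Lama2 and Itga9 against the summed FPKM of Sertoli cell or peritubular and stromal markers (log axes) in the 24 libraries, coloured by group. Itga9 runs with the Sertoli sum, of which Clu is the largest part, across groups. For Itga9, null and cKO KIT+ libraries lie above the THY1+ libraries at like peritubular and stromal sums. Lama2 lies at 75.1 to 87.1 FPKM in cKO KIT+, 47.8 to 105.4 FPKM in null KIT+ and 38.1 to 92.2 FPKM in cKO THY1+ libraries.

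Comparisons by label in the Sox3 table are given for completeness, since they set fractions of unlike markers side by side. Against the WT libraries labelled THY1+, cKO THY1+ uSPG had 18 genes called, each higher, beside 29.1% of all genes (17.8% higher and 11.3% lower). Against those labelled KIT+, cKO KIT+ dSPG had 17 called, 10 higher and 7 lower, beside 25.1% (12.4% higher and 12.6% lower). Without replicate 1 of the group labelled KIT+, 11 of these remained. Between the WT groups, 10 genes were called, 8 higher and 2 lower in the group labelled KIT+, beside 19.7% (13.1% higher and 6.53% lower). Without replicate 1 of the group labelled THY1+, or without replicate 3 of that labelled KIT+, 6 of these remained. Itga6 was at 9.64, 8.34 and 11.5 FPKM in the libraries labelled THY1+ and 20.3, 21.2 and 26.0 FPKM in those labelled KIT+. The latter overlap the 19.6 to 24.7 FPKM of cKO THY1+ uSPG, and the former overlap the 9.77 to 14.1 FPKM of cKO KIT+ dSPG.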

How the data were processed

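RNA of sorted spermatogonia was measured in 24 libraries of 8 groups, with 3 replicates each. The authors depleted ribosomal RNA, made strand-specific libraries and read them from a single end. The authors placed reads on mm10 with Novoalign, keeping multiple placements, and computed the deposited FPKM values with USeq, in 1 table per mutant. The authors tested read counts with DESeq2. The tables used here give no counts, so FPKM was tested on a log scale.

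With limma 3.58.1 in R 4.3.3, a model of 4 group means was fitted per table to log2(FPKM + 0.1), a scale that understates changes of low genes. A mean of 0.1 FPKM over a table's 12 libraries was required, which left 22374 genes (Zbtb16) and 21212 genes (Sox3). Moderated two-sided tests used a trended, robust prior, with Benjamini-Hochberg adjustment over every gene tested. Calls require both an adjusted p no higher than 0.05 and a change of 1.5-fold or more. The pipeline was tested on simulated data. Reads per library were estimated from the steps between low FPKM values and merged exon lengths (GENCODE M21, GRCm38). Between 74.4% and 78.1% of low values were whole reads within 0.02 of a read, so depths are approximate, and read numbers carry counting error only.

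Genes and lists were chosen with earlier results of these data known. Of the genes that match the symbol rule, 1 is not reported here and enters no count or median of the genes described. Values per library are given for Itga6, Itgb1, each gene called between genotypes, and the 6 genes with the largest change in each of the WT (Zbtb16 table) and cKO fraction comparisons among those with a higher group mean of at least 1 FPKM. Apart from Itga6 and Itgb1, these were picked by the same comparisons, so a lack of overlap adds no support. The share of all genes without overlap is not given. Lists not given in the report are those of undifferentiated spermatogonia, lower in WT KIT+ for 9 of 9 genes, and of differentiating spermatogonia, higher for 4 of 6.

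The labels number the replicates without saying whether numbers pair libraries. Deviations from group means were correlated between same-numbered libraries. All 3 pairs were above 0.1 for null against WT in THY1+ (0.133 to 0.475) and in KIT+ (0.362 to 0.520) and for the null fractions (0.315 to 0.519), so the replicate block is given there. The lowest pair was at 0.0702 for the WT fractions, where the genes called in addition with the block are named, and 0.0808 for the cKO fractions.

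Alternatives were pseudocounts of 1 and 0.01, no filter, a filter of 1 FPKM, median-ratio scaling, the replicate block, fits on the compared groups alone, each library left out, and replicates 2 and 3 of the Sox3 table. Figures were drawn with matplotlib 3.10.9. Promoters are from RefSeq.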

Additional observations from a re-analysis of the deposited data

How the results depend on the processing

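The counts of genes called kept within 1.5 times under most settings. In THY1+ uSPG, null against WT called 2 genes in place of 1 with median-ratio scaling (Itga3 in addition), 4 with the replicate block and 1 to 2 when libraries were left out. Averaged over fractions, the 1 call became 0 with a pseudocount of 1 and was 0 to 1 when libraries were left out. Between the WT fractions, 7 to 13 genes were called with libraries left out, in place of 11. The interaction gave 11 calls with the replicate block (10 higher and 1 lower) and 1 (Itgb8) without replicate 1 of null KIT+, a range of 0 to 1 over libraries left out. In replicates 2 and 3 alone, the calls fell from 13 to 5 for Sox3 cKO against WT averaged over fractions, from 12 to 6 for the cKO fractions, from 17 to 9 for cKO against WT labelled KIT+, and from 10 to 6 for the WT labelled fractions. With libraries left out, the last 2 ranged from 11 to 17 and from 6 to 11. The cause of these shifts was not tested, beyond the fewer libraries or genes of each setting. Shares of all genes called in fits on fewer libraries are not given. Not every same-numbered pair correlated above 0.1 in the WT fractions, in the cKO fractions or over all 4 groups. There the block moved no other count by over 1.5 times.

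Values near 0 changed sign when libraries were left out. The Itga6 log2 change ranged from -0.09 to 0.03 in THY1+, from -0.20 to 0.16 in KIT+ and from -0.11 to 0.07 averaged for null against WT, and its interaction from -0.17 to 0.18. That of Itgb1 ranged from -0.03 to 0.09 averaged for null against WT and from -0.09 to 0.01 between the WT fractions. Of the other values by gene, 924 kept their direction and call and 55 lost the call. Depth limits Itgb2 in KIT+ libraries of the Zbtb16 table, at 8 to 42 reads.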
